A study of Mus musculus with 2 samples.

Results

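The genes described here encode the NF-kappa-B transcription factors and the proteins that hold them back or release them: 10 listed genes, all found by symbol among 12557 genes of the deposited table, with 1 entry each. They are the subunit genes Rela, Rel, Relb, Nfkb1 and Nfkb2, the inhibitor genes Nfkbia, Nfkbib and Nfkbie, the nuclear regulator gene Nfkbiz and the kinase gene Ikbkb. The genes were chosen by their RPKM values in both libraries as well as by their function, so the values below are a description and carry no test. RNA was sequenced from Tomato-positive cells sorted from the embryonic mouse sinoatrial node, the tissue that paces the heart, after endothelial cells had been taken out with CD31 microbeads. Both groups were ICR embryos with Hcn4-CreERT2, a recombinase that tamoxifen switches on in cells using the promoter of Hcn4, the pacemaker channel gene, and the Rosa-tdTomato reporter. The mutant group carried Isl1f/f and the control group Isl1+/+. Both received tamoxifen at E10.5. The protocol puts the dissection 36 hours after it, while the stage label names E12.5, a longer gap, and the labels do not settle which holds. Embryos of 1 genotype were pooled into 1 library. The read totals, worked out from the steps of the deposited small RNA values, were 110117186 for the control group and 119018888 for the mutant group. Isl1, a LIM-homeodomain transcription factor gene given as the check of the genotypes, stood at 7.65 RPKM in control and 1.52 RPKM in mutant cells.

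NF-kappa-B proteins work in pairs. The subunits of the Rel type carry the activating domain, while Nfkb1 and Nfkb2 encode long precursors that are cut to shorter DNA-binding partners and that, uncut, act as inhibitors themselves. In the canonical pathway, signals such as tumour necrosis factor or interleukin 1 activate the IKK kinase, which marks the cytoplasmic inhibitors for destruction and frees pairs of Rela and Nfkb1 products. In the alternative pathway, receptors such as the lymphotoxin beta receptor lead to cutting of the Nfkb2 precursor and free its pairs with Relb. Several genes of the system are themselves targets of NF-kappa-B, Nfkbia being the best known.

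Of the 10 genes, 8 were lower in the mutant library and 2, Rel and Nfkbib, were higher. Of all genes listed, 67.2% of genes were lower and 32.8% higher, so a count of lower genes alone does not set these apart. The partner genes of the alternative pathway were the lowest relative to control, Relb at 26.1% and Nfkb2 at 29.9% of the control level. Relb, at 0.415 RPKM in mutant cells, is in the table only through the control library and had to be lower. Among 1256 genes of like level, 317 had a lower ratio than Relb. For Nfkb2 this was 8 of the 1256 genes of its own level. Nfkbiz stood at 37.5% and Nfkbia, the inhibitor gene of highest level, at 57.1%. The median log2 ratio, taken on log2(RPKM + 1), was -0.64 for the 10 genes and -0.18 for all genes of the table. RPKM is the read number scaled to exon length and to the total reads of the library. A genotype has 1 library, which leaves replicate error unknown, and each interval below is an exact 95% interval for the counting of reads alone. PCR copies of a molecule are counted as separate reads, which these intervals do not cover. All 10 intervals left out a ratio of 1, as did those of 81.8% of the genes with recovered reads, since the libraries are deep. In bulk RNA, fewer cells of a type and less RNA per cell cannot be told apart.

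**Figure D1:**
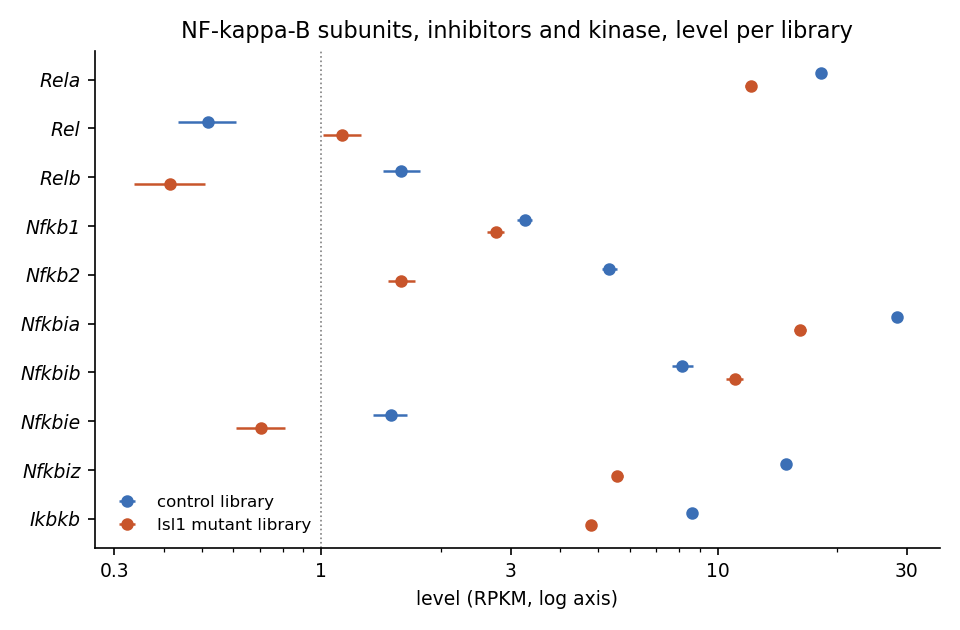
Level of each gene in RPKM (log axis) in the control and the Isl1 mutant library, 1 library per genotype, with exact 95% intervals for counting error and a dotted line at 1 RPKM. Nfkbia and Rela are the highest in both libraries, Rel and Nfkbib stand to the right of control in the mutant library, and the other 8 stand to the left.

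Among the activating subunits, Rela, which encodes the main activator of the canonical pathway (chromosome 19, 5637483 to 5648130, mm9), measured 18.2 RPKM in control and 12.1 RPKM in mutant cells. It was lower in mutant cells by 1.505-fold (counting interval 1.44 to 1.57, on 5024 and 3609 reads or more). Relb, the activator that pairs with the Nfkb2 product (chromosome 7, 20191566 to 20214787), measured 1.59 RPKM in control and 0.415 RPKM in mutant cells, and was 3.83-fold lower (counting interval 3.04 to 4.87, on 337 and 95 reads or more), the lowest ratio of the 10 genes. Rel, whose product is best known from lymphocytes (chromosome 11, 23641514 to 23670970), went the other way, with 0.516 RPKM in control and 1.13 RPKM in mutant cells. It was 2.19-fold higher (counting interval 1.79 to 2.68, on 142 and 336 reads or more). In the control library Relb thus stood at 3.08 times the level of Rel, while in the mutant library Rel stood at 2.72 times the level of Relb. Relb is in the table only through the control library and Rel only through the mutant library. With an entry level of 1 RPKM, this swap in order was therefore fixed in advance.

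The precursor genes differed from each other in size of change. Nfkb1 (chromosome 3, 135247619 to 135354511) measured 3.25 RPKM in control and 2.75 RPKM in mutant cells, 1.18-fold lower (counting interval 1.11 to 1.26). On log2(RPKM + 1) this was -0.18, the smallest difference of the 10 genes, and it turned to 0.080 once the median of genes of like level was subtracted. Nfkb2 (chromosome 19, 46379227 to 46386580) measured 5.33 RPKM in control and 1.59 RPKM in mutant cells. It was 3.35-fold lower (counting interval 3.06 to 3.66, on 1981 and 640 reads or more). Nfkb2 was above Nfkb1 in the control library and below it in the mutant library. Nfkb1 overlaps Ube2d3, a ubiquitin-conjugating enzyme gene on the opposite strand, over 20838 bases of its span. The library kit is not stated to mark strand. Ube2d3 stood at 56.6 and 58.8 RPKM, and reads from any shared stretch of exon cannot be told apart.

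Taken as a pool, the messages of the 5 subunit genes summed to 28.9 RPKM in control and 18.004 RPKM in mutant cells. Nfkb2 and Relb made up 23.9% of that sum in control and 11.1% in mutant cells. Rela and Nfkb1 made up 74.3% and 82.6%. The share of Rel was 1.78% in control and 6.27% in mutant cells, on a level near 1 RPKM. Rela was the largest item in both, at 63.04% and 67.3%.

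**Figure D2:**
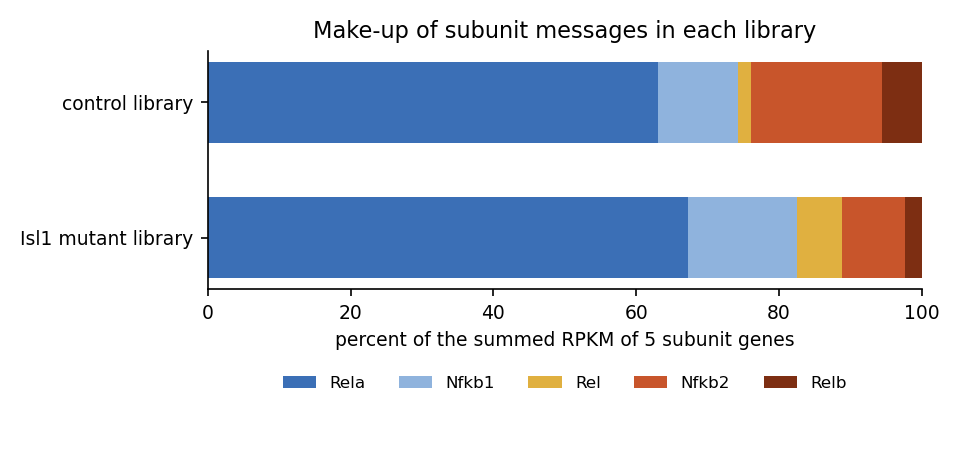
Share of the summed RPKM of the 5 subunit genes held by each gene, as stacked bars for the control and the mutant library, 1 library per genotype. The share of Nfkb2 and Relb together goes from 23.9% to 11.1%, and that of Rela from 63.04% to 67.3%.

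The cytoplasmic inhibitors did not move together. Nfkbia encodes the inhibitor that is destroyed and remade fastest (chromosome 12, 56590398 to 56593634), and measured 28.3 RPKM in control and 16.1 RPKM in mutant cells. It was 1.75-fold lower (counting interval 1.68 to 1.83, on 5038 and 3107 reads or more). Nfkbib, which encodes an inhibitor remade more slowly (chromosome 7, 29543270 to 29552531), measured 8.14 RPKM in control and 11.04 RPKM in mutant cells, 1.36-fold higher (counting interval 1.26 to 1.47). Nfkbia therefore stood at 3.47 times the level of Nfkbib in control cells and at 1.46 times in mutant cells. Nfkbie, the gene of a further inhibitor (chromosome 17, 45692665 to 45700118), measured 1.49 RPKM in control and 0.703 RPKM in mutant cells. This was 2.12-fold lower (counting interval 1.79 to 2.53, on 397 and 202 reads or more).

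The 3 inhibitor genes summed to 37.9 RPKM in control and 27.9 RPKM in mutant cells. Set against the summed subunits, this was a ratio of 1.31 in control and 1.55 in mutant cells. Against Rela alone, Nfkbia stood at 1.55 and 1.33 times its level, and Nfkbib at 0.447 and 0.911 times. Nfkbib shares 778 bases with Sirt2, a deacetylase gene on the opposite strand, at 34.03 RPKM in control and 31.4 RPKM in mutant cells. Sirt2 was 1.08-fold lower. Reads from any stretch of exon that both genes share cannot be told apart, and their part in the Nfkbib value was not tested.

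Nfkbiz encodes an inhibitor-like protein of the nucleus that acts with NF-kappa-B at some of its target genes (chromosome 16, 55811488 to 55839012). It measured 14.9 RPKM in control and 5.58 RPKM in mutant cells, 2.67-fold lower (counting interval 2.56 to 2.78, on 8215 and 3330 reads or more). Ikbkb encodes the IKK beta kinase, which marks the inhibitors for destruction (chromosome 8, 23769684 to 23817061). It measured 8.61 RPKM in control and 4.77 RPKM in mutant cells, 1.803-fold lower (counting interval 1.76 to 1.85). The deposited Ikbkb value was averaged over at least 19028 bases, while the longest protein-coding transcript of the gene in GENCODE M21 has 3977 bases and all annotated exons together, those of transcripts that keep introns included, 19078. Its level per length therefore covers sequence outside that coding transcript. To a lesser degree this holds for Nfkb1, with at least 5198 bases beside 4117 for its longest coding transcript, and for Nfkbiz, with 5013 beside 4115. Whether the further bases belong to other coding transcripts was not tested. Nfkbia, in contrast, rested on at least 1619 bases, beside 1578 for its coding transcript.

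The order of the levels changed below the top. In the control library it ran Nfkbia, Rela, Nfkbiz, Ikbkb, Nfkbib, Nfkb2, Nfkb1, Relb, Nfkbie, Rel. The intervals of Ikbkb and Nfkbib overlapped in that library, as did those of Relb and Nfkbie. In the mutant library the order was Nfkbia, Rela, Nfkbib, Nfkbiz, Ikbkb, Nfkb1, Nfkb2, Rel, Nfkbie, Relb, with no overlap between neighbours. Nfkbib moved from place 5 to place 3 and Relb from place 8 to place 10.

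By size, 6 of the 10 genes reached 5 RPKM in at least 1 library, and 5 of these were at least 1.5-fold lower in the mutant library on the plain RPKM ratio. Of all genes at that level, 14.7% were at least 1.5-fold lower and 4.63% at least 1.5-fold higher. Rela lay just inside that line and left it under either scaling or with level bins subtracted, which gave 4. Nfkb2 and Nfkbiz were at least 2-fold lower on log2(RPKM + 1), a size reached by 2.73% of genes in that direction and 1.00% in the other. Nfkb2 and Ikbkb reached 5 RPKM only through the control library, so neither could have been counted as higher. On the plain RPKM ratio with no floor, Relb, Nfkb2, Nfkbiz and Nfkbie were at least 2-fold lower, beside 14.0% of all genes, and Rel was at least 2-fold higher, beside 3.27%. These shares describe a list chosen with the values in view and lend it no support.

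The table itself sets a further limit for the genes of low level. Each gene in it has at least 1 RPKM in at least 1 library. Relb and Nfkbie are in it only through the control library and Rel only through the mutant library, so these 3 had to differ in the direction they show. The same holds for 1635 genes present only through the control library and 472 only through the mutant library. Among the 7 members that reached 1 RPKM in each library, 6 were lower and 1 was higher, beside 65.1% and 34.9% of all such genes.

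Because the ratio moved with level over the whole table, each gene was also placed among genes of its own level, with the table split into 10 bins by the mean of both libraries. Nfkb2 was low for its level, with a lower ratio in 8 of the 1256 genes of its bin, whose median log2 ratio was -0.27. Nfkbiz had 10 of 1255 genes below it and Nfkbia 36 of 1256, with bin medians of -0.13 and -0.07. Ikbkb had 83 of 1256 genes below it and Rela 144 of 1255. Relb stood less apart from its level despite the lowest ratio of the list: 317 of 1256 genes in its bin were lower still, and the bin median was -1.07. Nfkbie had 302 of 1256 genes below it and Nfkb1 725 of 1256. On the higher side, 85 of 1255 genes of the bin stood above Nfkbib and 156 of 1256 above Rel.

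**Figure D3:**
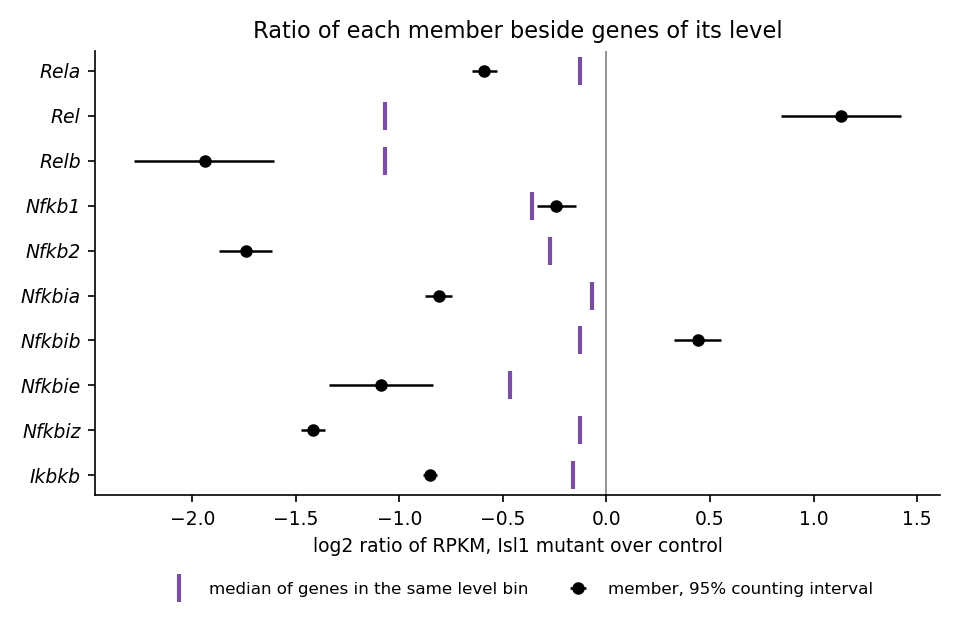
Log2 ratio of RPKM, Isl1 mutant over control, for each gene with its 95% counting interval (black), beside the median of all genes in the same of 10 level bins (purple bar). Nfkb2, Nfkbiz and Nfkbia lie well left of their bars, Nfkb1 lies close to its bar, and Rel and Nfkbib lie to the right of 0.

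**Figure D4:**
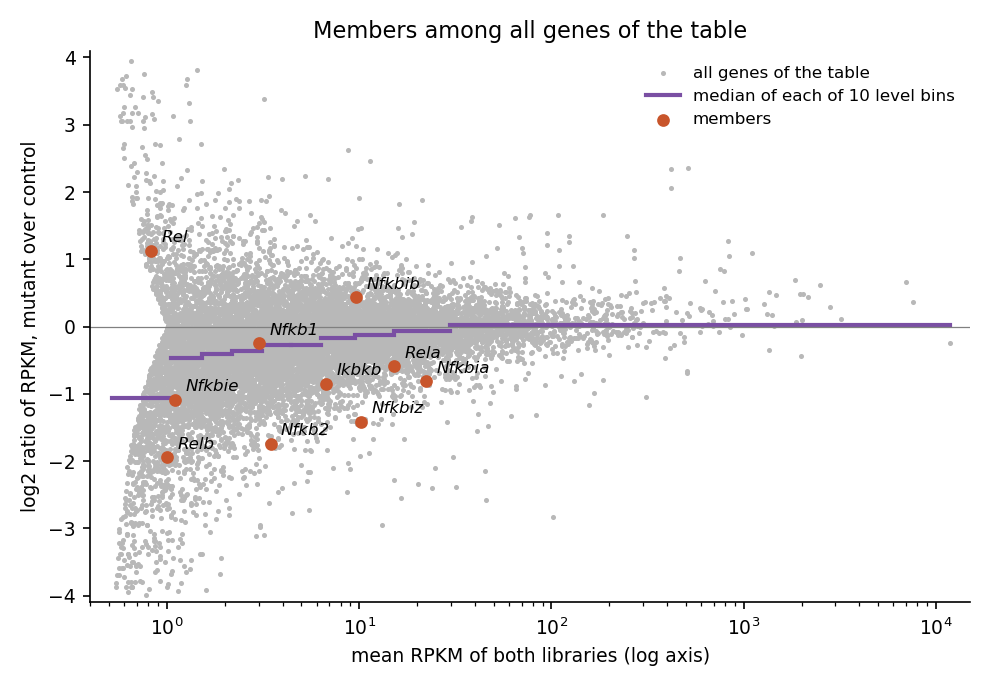
Log2 ratio of RPKM against mean RPKM (log axis) for all genes of the table (grey), the median of each of 10 level bins (purple) and the 10 NF-kappa-B genes (orange, named). The axis leaves out 109 genes beyond 4 in size on the log2 scale, and the empty wedge at the left is the 1 RPKM entry rule, at whose edges Rel, Relb and Nfkbie sit.

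Since several of these genes are known targets of NF-kappa-B itself, the stretch upstream of their start sites was read for the kappa-B consensus, the sequence to which the pairs bind. RefSeq promoter entries (GRCm38.p6, a later build than the mm9 coordinates above) matched 6 of the 10 genes, in 8 windows, and the 250 bases before each start were searched on both strands. Relb, Nfkb1, Nfkbiz and Ikbkb had no entry. At least 1 match was found for Nfkb2, Nfkbia, Nfkbie and Rel and none for Rela and Nfkbib. Of 32851 windows of the same length, 7.25% held a match. That share is per window, while the members are counted per gene, with 8 windows for 6 genes, so they are not like for like. The windows below are all those that held a match and had at most 1 base in an exon, whatever the ratio of the gene. They run 5′ to 3′ on the gene's strand, with the match, or overlapping matches of both strands, in capitals.

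Nfkbia, chr12:55492648-55492897, minus strand: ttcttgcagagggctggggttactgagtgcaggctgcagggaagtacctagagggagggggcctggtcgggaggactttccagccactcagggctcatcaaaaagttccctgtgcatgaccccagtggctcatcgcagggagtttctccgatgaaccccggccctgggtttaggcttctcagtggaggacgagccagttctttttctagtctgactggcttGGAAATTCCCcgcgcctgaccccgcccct
Nfkb2, chr19:46305445-46305694, plus strand: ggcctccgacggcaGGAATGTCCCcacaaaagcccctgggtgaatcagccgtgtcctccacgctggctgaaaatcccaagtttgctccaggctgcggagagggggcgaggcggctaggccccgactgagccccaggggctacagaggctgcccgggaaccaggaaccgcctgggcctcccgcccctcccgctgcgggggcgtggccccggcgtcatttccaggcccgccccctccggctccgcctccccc
Nfkbie, chr17:45555450-45555699, plus strand: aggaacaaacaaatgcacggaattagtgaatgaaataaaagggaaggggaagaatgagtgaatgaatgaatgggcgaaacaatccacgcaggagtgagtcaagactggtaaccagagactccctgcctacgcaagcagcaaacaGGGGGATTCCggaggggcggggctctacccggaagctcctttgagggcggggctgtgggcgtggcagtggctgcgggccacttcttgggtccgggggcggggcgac
Rel, chr11:23770971-23771219, minus strand: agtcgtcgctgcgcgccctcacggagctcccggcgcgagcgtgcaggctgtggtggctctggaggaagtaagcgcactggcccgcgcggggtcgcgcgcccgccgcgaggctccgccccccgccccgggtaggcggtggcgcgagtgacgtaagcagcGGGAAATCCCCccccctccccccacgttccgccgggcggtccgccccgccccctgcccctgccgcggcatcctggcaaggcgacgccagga

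Nfkb2 has 3 listed start sites, and each of its windows held a match. From the windows of the other starts, which lie largely in exons, only 1 match with its flanks is printed each. The first of them held a further match, 11 bases before its start.
Nfkb2, chr19:46304689-46304718, plus strand: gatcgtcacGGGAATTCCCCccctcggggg
Nfkb2, chr19:46305695-46305724, plus strand: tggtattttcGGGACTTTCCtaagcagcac
Only the 250 bases before each start were searched, so every match had to lie within them. Of the matches shown, the farthest lay 236 bases before its start and the nearest, that of Nfkbia, 29 bases. A match here is a run of letters in a window, and binding was not measured.

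Of 27 listed ligand and receptor genes 12 were in the table, 10 of them lower and 2 higher, with a median log2 ratio of -0.67 on log2(RPKM + 1) beside -0.18 for all genes. At 1 RPKM or more in each library there were 7, of which 5 were lower, beside 65.1% of all such genes, and the other 5 genes, there only through the control library, had to be lower. Ltbr, the lymphotoxin beta receptor gene of the alternative pathway, measured 5.78 and 2.73 RPKM, 2.12-fold lower (counting interval 1.94 to 2.31). Il1r1, the interleukin 1 receptor gene, measured 8.38 and 4.39 RPKM, 1.91-fold lower, and Tnfrsf1a, the main tumour necrosis factor receptor gene, 12.6 and 8.38 RPKM, 1.504-fold lower. Tnfrsf12a, the receptor gene of the cytokine TWEAK, which also feeds the alternative pathway, was 1.39-fold higher at 10.4 and 14.4 RPKM. So Ltbr and Tnfrsf12a lay on different sides. Cd40 and Tnfrsf13c, further receptor genes of this list named after their values were seen, were lower. Cd40 measured 1.17 RPKM in control and 0.248 RPKM in mutant cells, and Tnfrsf13c 1.10 and 0.0992 RPKM. Both are in the table only through the control library and had to be lower.

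Of 25 listed kinases, adaptors and ubiquitin enzymes upstream of IKK, 19 were in the table, 12 lower and 7 higher, with a median of -0.24. Over all genes listed, 67.2% were lower, the share against which the counts of this list and of the inhibitor, brake and target lists below are read. Birc2, a ubiquitin ligase gene of the receptor complexes, measured 11.1 and 6.74 RPKM, 1.64-fold lower. Traf5, a receptor adaptor gene, was 1.57-fold lower at 9.68 and 6.17 RPKM. Tradd, an adaptor gene of tumour necrosis factor receptor, was 1.38-fold lower (5.37 and 3.90 RPKM) and Rnf31, a gene of the linear ubiquitin ligase, 1.36-fold lower (6.03 and 4.45 RPKM). Map3k14, the kinase gene that triggers the alternative pathway, was not in the table.

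Ikbkg, the gene of the regulatory IKK subunit, measured 9.85 and 9.24 RPKM, 1.07-fold lower, a smaller difference than that of Ikbkb. It belongs to a list of 12 further inhibitors and IKK subunits, 11 of them in the table, 8 lower and 3 higher, with a median of -0.12 that turned to 0.075 with the level bins subtracted. In that list Tbk1, an IKK-related kinase gene, was 1.40-fold lower (7.07 and 5.07 RPKM). Cdc37, a chaperone gene for kinases, was 1.13-fold higher (51.8 and 58.7 RPKM) and Nkiras2, the gene of a small GTPase-like protein that binds inhibitors, 1.05-fold higher (28.7 and 30.1 RPKM). Of 10 deubiquitinases and other brakes, 9 were in the table, 5 lower and 4 higher, with a median of -0.21 that turned to 0.049 with the level bins subtracted. Usp7, a deubiquitinase gene, was 1.97-fold lower (5.73 and 2.91 RPKM) and Tnip2, an adaptor gene that restrains the pathway, 1.80-fold lower (6.82 and 3.79 RPKM). The related gene Tnip1 was 1.35-fold higher (4.88 and 6.57 RPKM).

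Target genes were compared last. Of 38 listed targets 22 were in the table, 17 lower and 5 higher, with a median of -0.45. Of these, 7 were there only through the control library, and the 15 that reached 1 RPKM in each library divided into 10 lower and 5 higher, with a median plain log2 ratio of -0.10 beside -0.16 for all such genes. Cxcl12, a chemokine gene, was 1.81-fold lower (13.3 and 7.34 RPKM), while Vcam1, a cell adhesion gene, was 1.55-fold higher (40.1 and 62.3 RPKM). Junb and Gadd45b, which are also early response genes, were 1.45-fold lower (94.1 and 64.7 RPKM) and 1.42-fold lower (23.4 and 16.5 RPKM). None of the 11 target genes at 5 RPKM or more was 2-fold different on log2(RPKM + 1). Of all genes at that level, only 2.73% were 2-fold lower and 1.00% 2-fold higher. With 11 genes and shares of this size, the absence of such a gene does not set the targets apart.

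**Figure D5:**
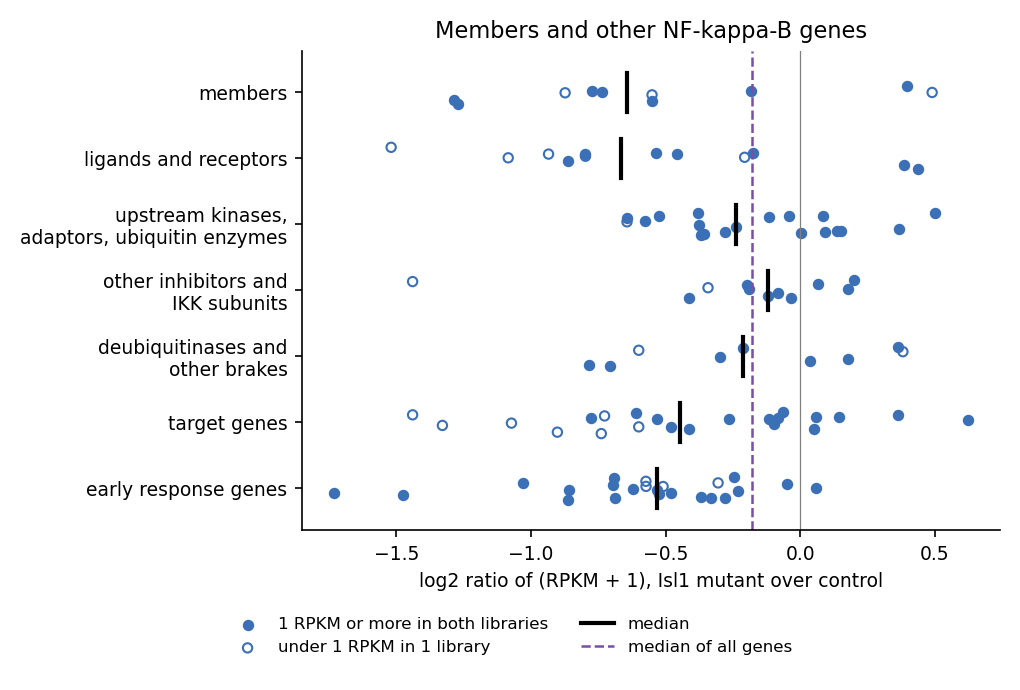
Log2 ratio of (RPKM + 1), Isl1 mutant over control, for the 10 listed NF-kappa-B genes and 6 lists of related genes; each point is a gene, open points are under 1 RPKM in 1 library, black bars are list medians and the dashed line is the median of all genes. Medians run from -0.67 for ligands and receptors to -0.12 for other inhibitors and IKK subunits, beside -0.18 for all genes.

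Other measured features of these libraries moved with the lower NF-kappa-B genes. Early response genes, which tissue dissociation can induce along with Nfkbia and Nfkbiz, were lower in 22 of the 23 in the table, of 27 listed, with a median of -0.53. Of these, 4 were there only through the control library and had to be lower, and 18 of the other 19 were lower, beside 65.1% of all genes at 1 RPKM in each library. Myc was 4.49-fold lower (8.89 and 1.98 RPKM), Fosb 4.21-fold lower (5.22 and 1.24 RPKM), Socs3 1.84-fold lower (62.8 and 34.1 RPKM) and Nr4a1 1.83-fold lower (120.4 and 65.9 RPKM). Markers of macrophages and white cells, cells in which this pathway is active, were lower in 14 of 14 cases, beside 67.2% of all genes. Of these 14, 9 were in the table only through the control library and had to be lower, and the 5 that reached 1 RPKM in each library were lower too. The summed level was 67.3 RPKM in control and 20.2 RPKM in mutant cells. Of the defining markers, Tyrobp, Aif1, Mrc1, Spi1 and Cd52 were not in the table, and Adgre1 was there under its older symbol Emr1. The parts of dissociation and of white cells in the NF-kappa-B values were not tested.

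The summed level of endothelial and endocardial markers was 35.3 RPKM in control and 21.6 RPKM in mutant cells, with 8 of 10 lower and Cdh5, Flt1, Cldn5 and Robo4 not in the table. That of fibroblast and cushion mesenchyme markers was 749.2 and 499.7 RPKM, with 12 of 13 lower. Erythroid markers summed to 416.1 and 71.9 RPKM, 11 of 11 lower, and epicardial markers to 94.2 and 109.4 RPKM, 5 of 8 lower. Without Krt19 the epicardial sums were 84.4 and 80.5 RPKM, so the higher sum rested on that gene. Heart muscle markers, 12 of 12 in the table, summed to 14242 RPKM in control and 19913 RPKM in mutant cells, 9 of them higher. Pacemaker markers, 8 of 9 in the table, summed to 121.3 and 53.5 RPKM, all 8 lower. This list holds Isl1 itself, the deleted gene, and the other 7, all lower, summed to 113.7 and 51.9 RPKM. Beside these marker counts, 67.2% of all genes were lower and 32.8% higher, and the epicardial count lay near that share. Some markers were there only through the control library and had to be lower: 3 endothelial, 1 fibroblast, 1 erythroid and 1 pacemaker gene. Another endothelial marker was there only through the mutant library and had to be higher. The markers of heart muscle were thus present in both libraries, with a higher sum in the mutant library, while those of the pacemaker programme were lower there. A lower sum was not particular to the pacemaker list. The white cell, erythroid, endothelial and fibroblast sums were lower too, and relative to control the erythroid and white cell sums were lower than the pacemaker sum.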

How the data were processed

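Per the submitters' processing notes, which give no versions, Trim Galore, FastQC, TopHat2 and Bowtie2 were used with mm9. How genes were quantified is not stated there. The values are the authors' RPKM, and the file headers call the exons constitutive without a definition. Recovered lengths were at least 99.7% of all annotated exons together for Ikbkb, 99.9% for Nfkbiz and 33.5% for Rel. Whether only constitutive exons were counted is therefore not settled. The unit is not named in the headers. It was read from the steps of 284 small RNA genes, whole within 0.01 reads in 284 (control) and 276 (mutant). The authors' deposited log2 ratio equals that of the RPKM values, with a largest difference of 1.89e-07. The authors' signed fold score was left out.

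For 12456 genes (99.2%) the smallest exon length giving whole reads in both libraries, within 2e-05 reads plus 2e-09 of the count, was taken; true reads can be a multiple. Fold intervals are Clopper-Pearson, level intervals exact Poisson. The 2-fold size rule uses log2(RPKM + 1), the 1.5-fold rule the plain ratio, both at 5 RPKM in at least 1 library. No test was made, with 1 library per genotype. Scripts (Python 3.11.15, scipy 1.17.1) were tested on simulated data. Members, lists and the naming rule were chosen with earlier results of these data known. Named were all members and, per list, the 4 largest ratios at 5 RPKM or more and any 2-fold gene; a symbol's highest entry was kept. Alternatives were pseudocounts, scalings, level bins, floors and means.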

Additional observations from a re-analysis of the deposited data

How the results depend on the processing

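The direction of each of the 10 genes held under pseudocounts of 0.1 and 5, no pseudocount (chosen after seeing the data), scaling to a median ratio of 0, upper quartile scaling and subtraction of the medians of 10 level bins, except that Nfkb1 turned from -0.18 to 0.080 with the level bins. The count of 8 lower and 2 higher genes stayed within 1.5-fold under each of these. The median log2 ratio of the genes, -0.64, was -0.82 and -0.36 with pseudocounts of 0.1 and 5, -0.83 with none, -0.597 and -0.58 under both scalings, -0.41 with level bins, -0.75 for genes at 5 RPKM or more and -0.53 as a mean. With a pseudocount of 5 the count at least 2-fold lower went from 2 to 0, as such a pseudocount shrinks low genes. The count at least 1.5-fold lower, 5, was 4 under both scalings and with level bins, and 7 at a floor of 1 RPKM. With that floor, Rel made the count at least 1.5-fold higher 1 instead of 0. Fewer genes are counted at a floor of 5 RPKM. Of the other inhibitors and IKK subunits, 2 of 4 were then lower (8 of 11 before), and of the brakes 2 of 3 (5 of 9). For ligands and receptors the lower ones were 3 of 4 (10 of 12), and for targets 6 of 11 (17 of 22). The share of all genes lower at that floor was not worked out, so these counts have no background beside them. With level bins subtracted, the other inhibitors had 3 lower and a median of 0.075, and the brakes a median of 0.049; the cause was not tested. No paired analysis was possible because each genotype has 1 library. Genes near 1 RPKM rest on few reads, 95 for Relb in the mutant library.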

Other observations

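Some low ratios of the pathway belonged to genes under 5 RPKM, picked out here after their values were seen. They are not all of the lowest, as Tnfrsf13c (11.1-fold lower) and Ccl7 (4.79-fold lower), among others, lay below Tnfaip3. Of all genes of the table, 14.0% were at least 2-fold lower on the plain RPKM ratio. Nfkbid, which encodes another nuclear inhibitor-like protein, measured 1.93 RPKM in control and 0.079 RPKM in mutant cells, from at least 203 and 9 reads. It was 24.4-fold lower, with a counting interval of 12.6 to 54.1. Il1b, the gene of the cytokine interleukin 1 beta, measured 2.44 and 0.2002 RPKM (327 and 29 reads at least), 12.2-fold lower with an interval of 8.33 to 18.5. Ccl2, a chemokine gene that draws monocytes, was 18.9-fold lower (1.74 and 0.0922 RPKM, from at least 105 and 6 reads, interval 8.40 to 52.7). Tlr2, a receptor gene for bacterial lipoproteins, was 5.77-fold lower (1.77 and 0.307 RPKM) and Tnfaip3, a deubiquitinase gene that ends NF-kappa-B signalling, 2.75-fold lower (1.15 and 0.417 RPKM). Nfkbid, Il1b, Ccl2, Tlr2 and Tnfaip3 are in the table only through the control library and so had to be lower. Traf2, a receptor adaptor gene at 1 RPKM or more in both libraries, stood at 2.57 RPKM in the control and 4.05 RPKM in the mutant library.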
